A study of Bubalus bubalis with 12 samples.

Results

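The hyaluronan synthesis and turnover genes described here are 8 rows of a gene expression table of the ruminal wall of dairy buffaloes (Bubalus bubalis). They were chosen by gene name, as LOC102390617, HAS1, HAS2, HAS3, CD44, HYAL1, HYAL2 and CEMIP, and make up 8 of the 34037 genes in the table. The study asked what green forage in the ration does to gene expression in this tissue. The control group (n = 6) was fed a total mixed ration (TMR), and the treated group (n = 6) was fed TMR in which green feed, fresh ryegrass, made up 30% of the diet. All 12 were adult Italian Mediterranean dairy buffaloes in milk, each giving 1 stranded library of total RNA from a piece of frozen wall, and the study formed the groups at random with regard to parity and milk yield. The forage to concentrate ratio and the amounts of silage, hay and meal differed together with the green feed, so that these parts of the diet cannot be told apart.

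Hyaluronan is a long, unsulphated sugar chain of the extracellular matrix, and stratified epithelia, to which the rumen lining belongs, hold it between their cells. Its 2 building blocks are UDP-glucuronate, which UDP-glucose dehydrogenase makes from UDP-glucose, and UDP-N-acetylglucosamine, and a hyaluronan synthase of the plasma membrane (HAS1, HAS2 or HAS3) joins them into the chain. CD44 is the main receptor of the chain on the cell surface. CEMIP, a hyaluronan-binding protein needed for depolymerisation, and HYAL2, a hyaluronidase attached to the cell surface, start its breakdown, and HYAL1 continues it in the lysosome.

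Fragments were counted above the floor for each of these steps, and among the synthases HAS3 made up nearly all of the summed level. LOC102390617 had a lower mean in the treated group, past a nominal threshold and not past an adjusted one, and none of the other 5 members that could be tested passed either threshold. Levels are given as FPKM, the fragments counted for a gene scaled by its length and by the counted fragments of the library, so that levels can be compared between genes. Differences are given as log2 fold changes of treated over control, from limma on log2(FPKM + 0.01). The nominal threshold is an unadjusted p-value of 0.05, the one used by the study, and the adjusted p-values are Benjamini-Hochberg values over all 16450 genes tested.

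The libraries held between 10531536 and 12948366 counted fragments. Squamous epithelium, the rumen lining, was well represented. Of its 11 markers 9 were in the table, and their summed level was between 3964 and 7180 FPKM. KRT4, among these 9, had a mean of only 0.494 FPKM. The summed level of 9 smooth muscle markers was at most 34.8 FPKM, and how much muscle the pieces of wall held was not tested. Of the defining markers of other cells, SOX10 and ELAVL4 (enteric glia and neurons), CD79B (B cells) and LRRN4 (mesothelium) were at 0 in all animals, while S100B of the first list and UPK3B of the last had means of 6.63 and 2.13 FPKM. A pair of libraries stood apart, control replicate 6 and treated replicate 6. Over all tested genes their median absolute deviation from the group median was 0.40 and 0.45 on the log2 scale, against 0.17 to 0.25 in the other 10 animals, and KRT5, a basal keratin, was at 451 and 498 FPKM in them against 1179 to 2372 FPKM elsewhere. The log2 fold changes of the members are therefore also given without these 2 animals. In whole tissue, fewer cells of a type and less RNA per cell cannot be told apart.

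In the supply of UDP-glucuronate, LOC102390617 stands beside a second row. The annotation calls LOC102390617 UDP-glucose 6-dehydrogenase-like, and the table also holds a separate row under the name UGDH, the symbol of UDP-glucose dehydrogenase itself, at another gene ID. In the RefSeq gene table of the NDDB_SH_1 assembly, LOC102390617 is listed as protein coding between LIN54 and THAP9. The levels of the 2 rows were far apart, with means over the 12 animals of 131 FPKM for UGDH and 9.69 FPKM for LOC102390617. The gene lengths behind the FPKM were 3125 and 3397 bases. Reads that map equally well to near-identical copies did not pass the mapping quality limit of the counting, so that both rows may lack shared reads and both levels are uncertain in that respect.

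LOC102390617 was at 8.50, 15.5, 8.98, 7.51, 13.9 and 17.0 FPKM in control replicates 1 to 6. It was at 4.26, 6.79, 11.4, 5.05, 9.68 and 7.82 FPKM in treated replicates 1 to 6. The groups overlapped: 3 control animals lay above every treated animal, 3 treated animals lay below every control animal, and the others shared a range. The values rested on 324 to 626 fragments in control and 173 to 466 in treated animals, so that counting error was small beside the spread between animals. The group means were 11.9 ± 4.04 FPKM (SD, n = 6) in control and 7.50 ± 2.73 FPKM (SD, n = 6) in treated animals.

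The log2 fold change of LOC102390617 was -0.67 with an SE of 0.27 (95% interval -1.27 to -0.08), which is a fold of 0.627. Its nominal limma p-value was 0.0285 and its adjusted p-value was 0.9996. The two-sided exact permutation test of its mean log2 level over all 924 assignments gave p = 0.0519, where the smallest value that this test can give is 0.00216. The study picked this gene on the same 12 animals with the method edgeR, and reported a similar change with the method NOISeq. Its nominal call here is therefore not independent evidence of a lower level. Over all tested genes, 1.83% had a nominal p-value under 0.05, with 1.02% higher and 0.809% lower in treated animals, and 0 of 16450 passed the adjusted threshold. Were no gene to differ, a share of about 0.05 would lie under the nominal threshold, which is more than was seen.

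The nominal call of LOC102390617 rested on single animals. Without control replicate 2, 5 or 6 the limma p-value was 0.0644, 0.0584 and 0.0672, and without treated replicate 1 or 4 it was 0.0693 and 0.0652. Without both animals numbered 6 the log2 fold change was -0.58, with a limma p-value of 0.0736 and an exact permutation p-value of 0.127. The direction was the same each time, and the log2 fold change lay between -0.81 and -0.53 over all 25 alternatives tried. Markers of smooth muscle were lower on average in treated animals as well. All 9 had a lower mean log2 level in treated animals, 3 of them (DES, CNN1 and ACTG2, chosen here after their values were seen) past the nominal and 0 past the adjusted threshold, and their summed level was 14.6 to 34.8 FPKM in control and 5.16 to 25.9 FPKM in treated animals. The study had already called DES, MYH11 and SYNPO2 of this list lower on the same animals. The 9 mark the same cell type, so their shared direction is not 9 separate observations. A marker score here is the mean over the tested markers of a list of the log2 level, centred on each marker's mean, with equal weights. CNN1 and ACTG2, at 0 in some animals, had log2 fold changes of -3.06 and -2.21. The other smooth muscle markers had -1.04 to -0.51. How far CNN1 and ACTG2 set the smooth muscle score was not tested. With the smooth muscle score as a covariate, the log2 fold change of LOC102390617 was -0.58 with a limma p-value of 0.128. All 9 fibroblast markers had a lower mean log2 level in treated animals too, none past the nominal threshold, with summed levels of 46.6 to 288 FPKM in control and 20.1 to 180 FPKM in treated animals, and with this score as a covariate the log2 fold change was -0.64, near that without it, with a limma p-value of 0.0522. Of 5 tested immune and 5 endothelial markers 0 passed, with summed levels of 15.0 to 25.9 and 8.94 to 30.3 FPKM in control and of 9.74 to 23.9 and 5.88 to 31.9 FPKM in treated animals. The part of muscle and fibroblast content in the result was not tested beyond these fits.

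UGDH showed no such difference. Its level ran from 106 to 143 FPKM in control (median 135) and from 97.5 to 145 FPKM in treated animals (median 141), and the groups overlapped nearly throughout. The means were 129 ± 15.4 FPKM and 134 ± 18.1 FPKM (SD, n = 6 each), and the log2 fold change was 0.05 with an SE of 0.12 (95% interval -0.21 to 0.31, nominal limma p = 0.694, exact permutation p = 0.719). Without both animals numbered 6 the log2 fold change was 0.047, and with the smooth muscle score as a covariate it was 0.23 with a limma p-value of 0.115. The lowest value, 97.5 FPKM in treated replicate 2, lay well below the 134 to 145 FPKM of the other 5 treated animals.

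Within each animal, the LOC102390617 level was 6.47, 11.1, 6.26, 6.60, 13.1 and 12.2% of the UGDH level in control replicates 1 to 6. In treated replicates 1 to 6 it was 3.19, 6.97, 8.06, 3.58, 6.79 and 5.39%. The control animals fell into 3 near 6% and 3 above 11%, and the treated animals all lay below those 3. The mean percentage was 9.29 ± 3.18 in control and 5.66 ± 1.96 in treated animals (SD, n = 6 each). The mean log2 ratio differed by -0.72 (treated minus control), with an exact permutation p of 0.0541 (two-sided), which does not pass 0.05. The sum of both rows was 141 ± 16.7 FPKM in control and 141 ± 19.0 FPKM in treated animals (exact permutation p = 0.998).

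**Figure D1:**
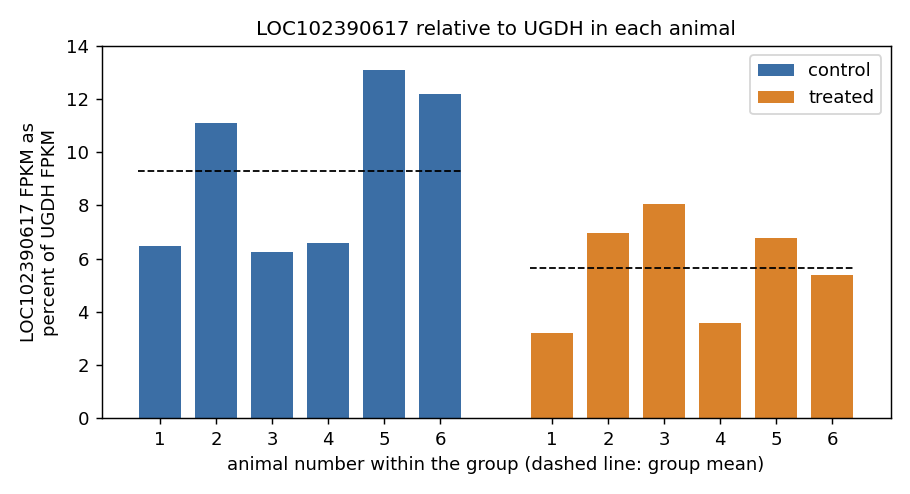
LOC102390617 FPKM as a percent of UGDH FPKM in each animal, with 1 bar per animal and a dashed line at each group mean. Control animals lie between 6.26 and 13.1% and treated animals between 3.19 and 8.06%.

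Among the synthases, HAS3 was at 5.17, 5.90, 3.79, 3.70, 3.30 and 3.96 FPKM in control replicates 1 to 6. It was at 5.72, 3.50, 3.78, 4.07, 6.50 and 1.99 FPKM in treated replicates 1 to 6. The treated group held both the highest and the lowest animal, and the group means, 4.31 ± 1.00 and 4.26 ± 1.62 FPKM (SD, n = 6 each), were close. The log2 fold change was -0.08 with an SE of 0.26 (95% interval -0.65 to 0.48, nominal limma p = 0.757, exact permutation p = 0.814). The lowest value belonged to treated replicate 6, and with it left out the value was 0.12 (limma p-value 0.586), so that no direction can be given for HAS3. Without both animals numbered 6 it was 0.099.

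HAS2, the synthase of fibroblasts and of many developing tissues, was at or near the limit of counting. It had 2, 0, 0, 1, 5 and 4 fragments in control replicates 1 to 6 and 6, 1, 0, 6, 1 and 2 in treated replicates 1 to 6. Only 2 animals of each group had more than 3 fragments, the number taken as the floor, which corresponds to between 0.0456 and 0.0560 FPKM for this gene. HAS1 had 1 fragment in control replicate 1 and 0 in the other 11 animals, against a floor of 0.106 to 0.130 FPKM. Neither gene passed the filter of 0.1 FPKM in at least 6 animals, so neither was tested, and a difference between diets was not detectable at this depth. These floors cover counting error only, while the 95% intervals of the fold changes rest on the spread between animals.

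**Figure D2:**
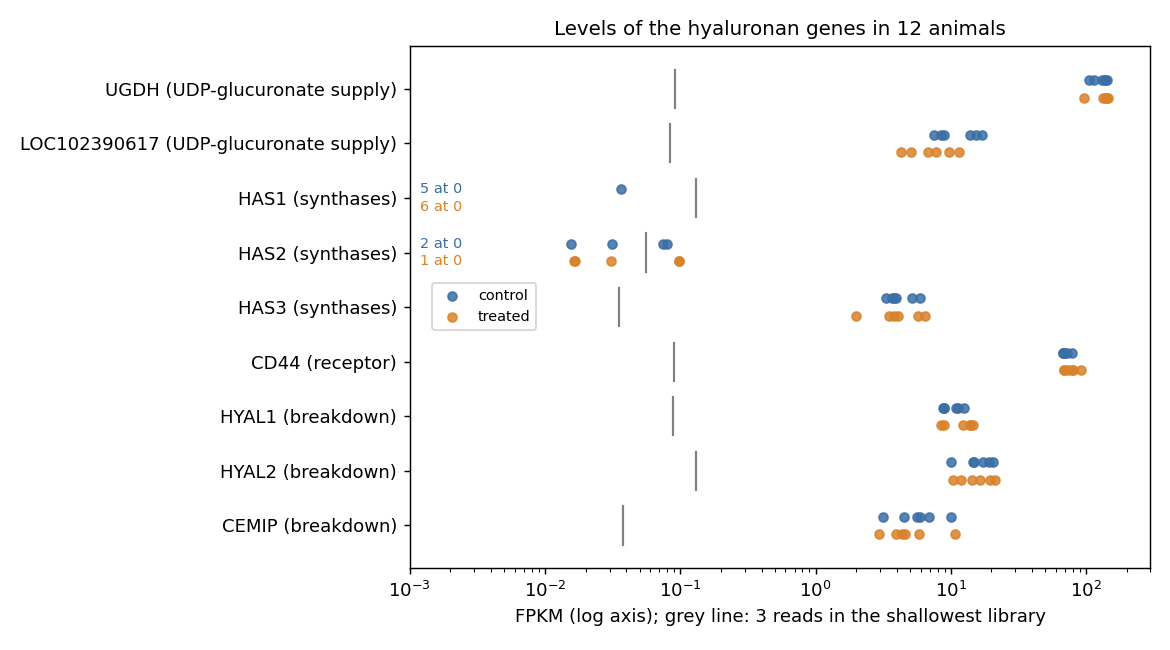
FPKM of UGDH and the 8 members in each animal on a log axis, ordered by role, with control and treated animals on separate lines, animals at 0 given as counts and a grey line at the floor of 3 fragments in the shallowest library. HAS3 lies between 1.99 and 6.50 FPKM, while HAS1 and HAS2 lie at or near their floors.

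CD44 was at 78.8, 67.3, 69.0, 72.2, 67.5 and 68.9 FPKM in control replicates 1 to 6. It was at 92.6, 80.7, 68.5, 73.4, 78.3 and 68.6 FPKM in treated replicates 1 to 6. Of the treated animals, 2 lay above every control animal, and the rest lay within the control range. The means were 70.6 ± 4.36 and 77.0 ± 9.10 FPKM (SD, n = 6 each). The log2 fold change was 0.12 with an SE of 0.09 (95% interval -0.08 to 0.32, nominal limma p = 0.228, exact permutation p = 0.128). It was 0.064 without treated replicate 1, the highest animal, and 0.14 without both animals numbered 6. CD44 had the smallest spread of the 6 tested members, with a within-group SD of 0.13 on the log2 scale against 0.29 to 0.60 for the other 5.

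Of the breakdown genes, HYAL1 was at 10.9, 8.86, 12.6, 8.91, 11.3 and 8.81 FPKM in control replicates 1 to 6. It was at 13.8, 12.4, 14.6, 8.52, 8.99 and 13.9 FPKM in treated replicates 1 to 6. The treated animals fell into 4 between 12.4 and 14.6 FPKM and 2 below 9, and 3 of them lay above every control animal. The log2 fold change was 0.22 with an SE of 0.16 (95% interval -0.14 to 0.57, nominal limma p = 0.209, exact permutation p = 0.219). Without both animals numbered 6 it was 0.13, with a limma p-value of 0.472. In the RefSeq table HYAL1 overlaps HYAL3, another member of the hyaluronidase family, by 2937 bases. Reads in the shared stretch may count for neither, so that both levels may be too low. The level of HYAL3 as counted had a mean of 0.805 FPKM over the 12 animals.

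HYAL2, which lies next to them and overlaps neither, was at 17.4, 14.5, 19.3, 14.9, 20.6 and 10.0 FPKM in control replicates 1 to 6. It was at 19.4, 16.4, 21.4, 14.4, 11.9 and 10.3 FPKM in treated replicates 1 to 6. The groups covered almost the same range, and the animal numbered 6 was the lowest in each. The log2 fold change was -0.05 with an SE of 0.21 (95% interval -0.50 to 0.40, nominal limma p = 0.810, exact permutation p = 0.827), and its sign changed when control replicate 3 or 5 or treated replicate 5 or 6 was left out (0.0077, 0.028, 0.018 and 0.059). Without both animals numbered 6 it was -0.071, and it was -0.18 without control replicate 6, -0.12 without treated replicate 1 and -0.15 without treated replicate 3.

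CEMIP was at 5.89, 3.18, 5.62, 4.53, 6.93 and 10.1 FPKM in control replicates 1 to 6. It was at 5.81, 4.58, 4.34, 3.90, 2.93 and 10.7 FPKM in treated replicates 1 to 6. Here the animal numbered 6 was the highest in each group, the reverse of HYAL2. The log2 fold change was -0.21 with an SE of 0.31 (95% interval -0.88 to 0.47, nominal limma p = 0.522, exact permutation p = 0.550), and without both animals numbered 6 it was -0.26 with a limma p-value of 0.279. Its size rested on single animals, since it was -0.041 without control replicate 6, -0.057 without treated replicate 5, -0.37 without control replicate 2 and -0.43 without treated replicate 6.

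**Figure D3:**
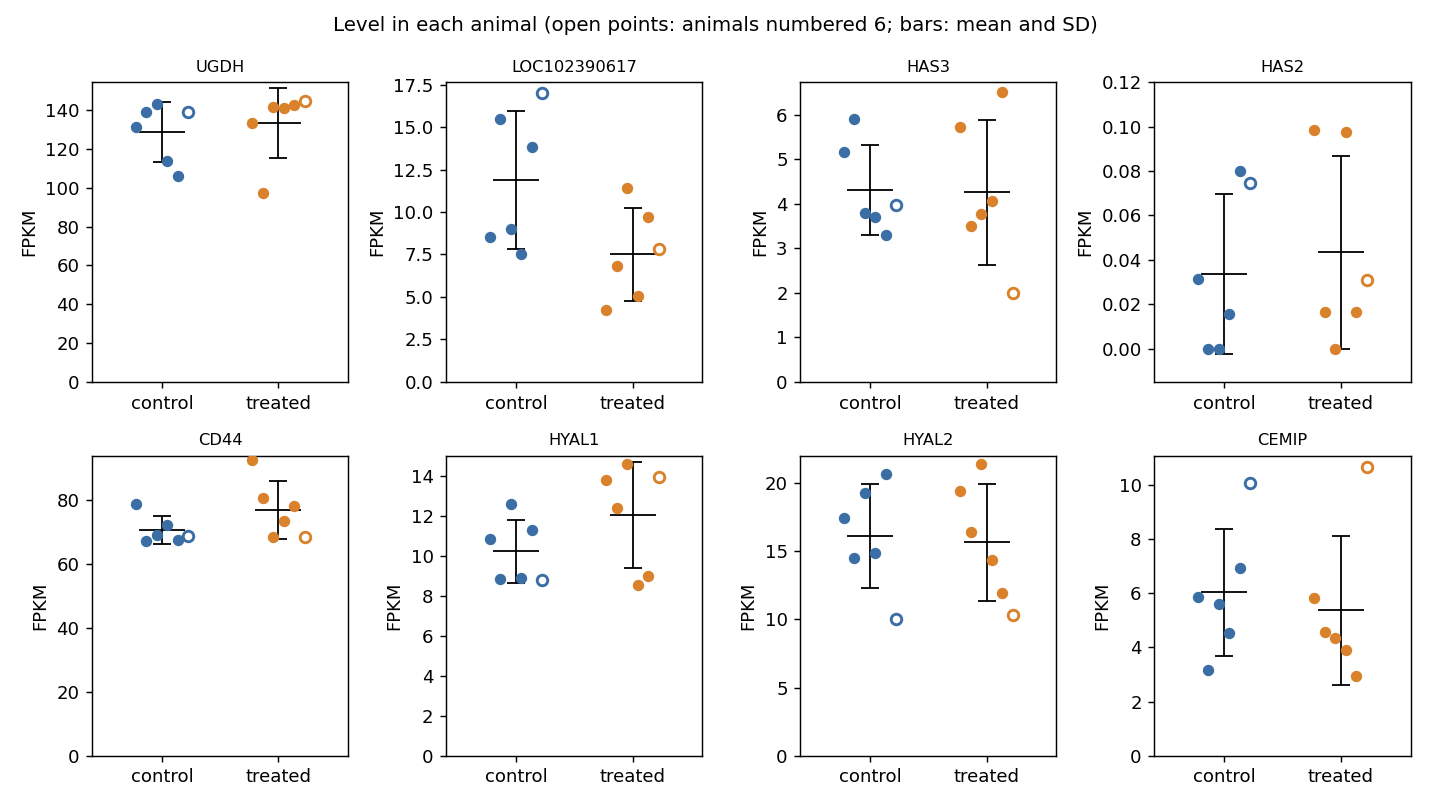
FPKM of UGDH and 7 members in each animal by group, with the mean and SD as black bars and open points for the animals numbered 6. The groups overlap in every panel, and the open points are the lowest for HYAL2 and the highest for CEMIP in both groups.

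In all, 1 of the 6 tested members passed the nominal threshold, downwards, against 0.809% of all tested genes, and 0 passed the adjusted threshold. The 1 is LOC102390617, which the study had already called on these animals. The count is therefore not evidence of an excess among the members. The groups overlapped for all 6, where they did not overlap for 0.0669% of all tested genes. None of HAS3, CD44, HYAL1, HYAL2 and CEMIP passed the nominal threshold under any of 25 alternatives, with a lowest p-value of 0.0714. The intervals of these 5 genes reach folds of at least 1.25 in one direction or the other, so that differences of that size remain compatible with the data.

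The order of the levels, each per kilobase, was UGDH, CD44 (73.8 FPKM), HYAL2 (15.9), HYAL1 (11.1), LOC102390617 (9.69), CEMIP (5.71) and HAS3 (4.28), as means over the 12 animals, followed by HAS2 and HAS1 near 0. UGDH was above CD44 and CD44 above HYAL2 in 12 of 12 animals, by 1.77-fold and 4.76-fold. HYAL2 was above HYAL1 in 11 of 12, by 1.41-fold. In an exact sign-flip permutation test of the log2 ratio over the animals, two-sided and adjusted over 6 neighbouring pairs, these had p = 0.00146, 0.00146 and 0.00488, and LOC102390617 was above CEMIP in 10 of 12 animals with p = 0.00879. HYAL1 and LOC102390617 did not differ beyond their spread (8 of 12 animals, exact p = 0.216), nor did CEMIP and HAS3 (9 of 12 animals, exact p = 0.216). Neighbours were chosen by their means in these same animals, so the direction of each pair was set beforehand and the p-values are descriptive. The smallest unadjusted p-value that this test can give is 0.000488. HYAL1 may lack reads in its overlap with HYAL3, and how far this adds to its gap from HYAL2 was not tested.

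The other genes of the pathway were taken from 7 lists of 62 genes, members included, of which 58 were in the table and 45 could be tested. In the supply of UDP-sugars, which also holds the enzymes that make UDP-N-acetylglucosamine, 1 of 9 tested genes passed the nominal threshold, LOC102390617 itself, and UGDH had the highest mean. Of 5 tested hyaluronidases and depolymerisation genes 0 passed, and CEMIP2, a cell surface relative of CEMIP with hyaluronidase activity, had the highest mean at 20.2 FPKM (19.9 ± 4.12 in control and 20.6 ± 5.63 in treated animals, SD, n = 6 each). The median log2 fold change of all 45 was -0.04, with 19 above 0, beside 0.0016 over all tested genes.

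In the remaining lists the count past the nominal threshold was 0 of 1 for the synthases, 0 of 1 for the lysosomal exoglycosidases, 0 of 5 for the receptors, 0 of 7 for the hyaluronan-binding matrix and 0 of 17 for other users of UDP-glucuronate. HEXA, a subunit of the lysosomal hexosaminidase, was the only exoglycosidase row matched by name, with a mean of 16.7 FPKM. HAPLN3, a link protein, led the matrix list at 2.59 FPKM, and 5 of its 16 genes were at 0 in all animals. SLC35D1, a carrier that brings UDP-glucuronate into the endoplasmic reticulum, led the users of UDP-glucuronate at 32.6 FPKM, with a log2 fold change of -0.05 (SE 0.14).

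**Figure D4:**
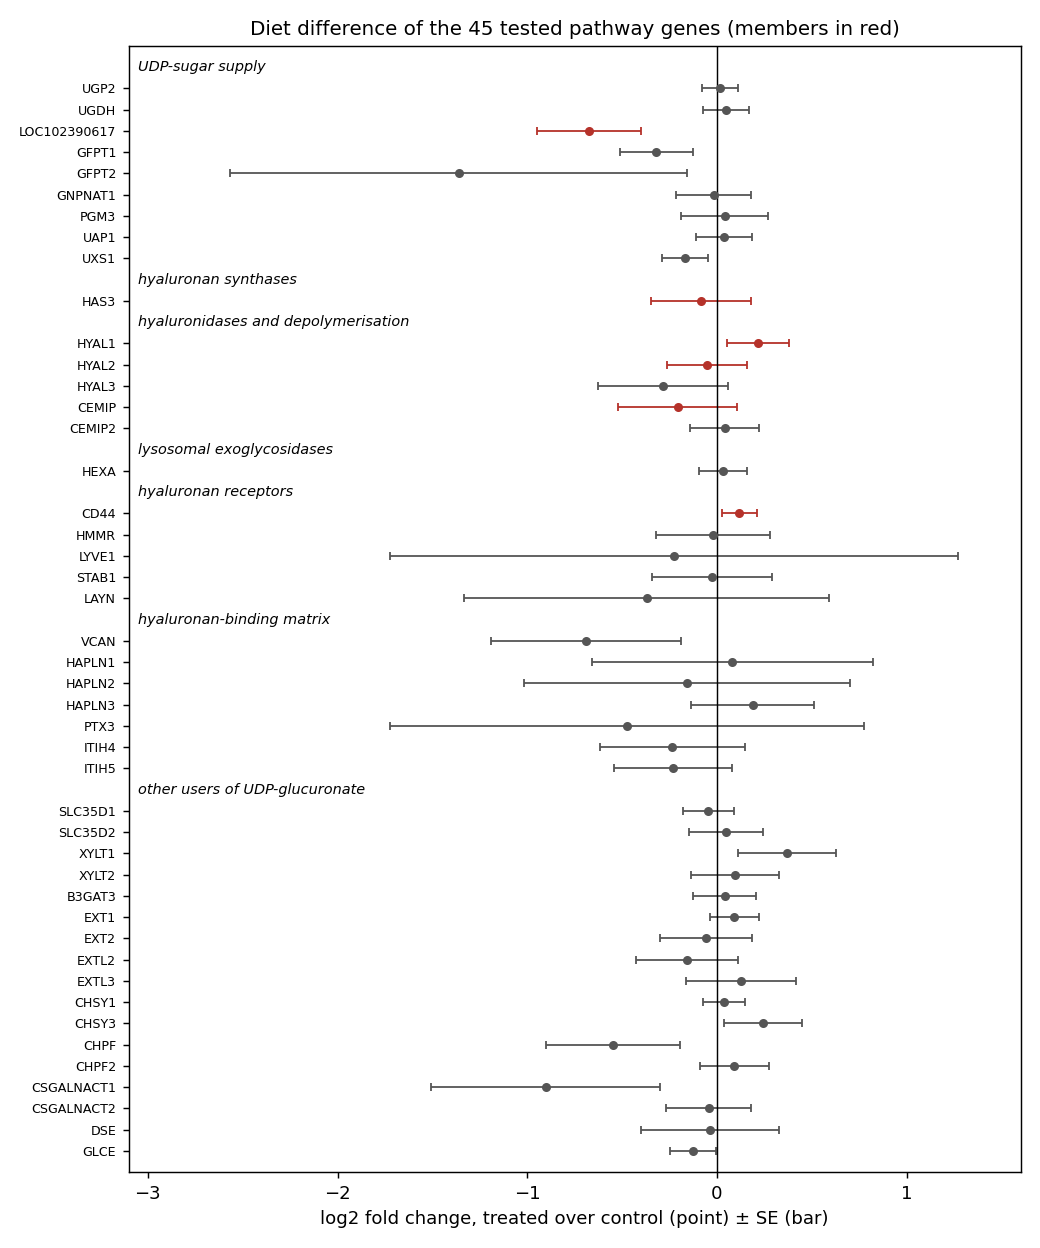
Log2 fold change of treated over control (points) with its SE (bars) for the 45 tested pathway genes, grouped by list, members in red. LOC102390617 at -0.67 is the only gene with a nominal limma p-value under 0.05, and genes with wide bars such as GFPT2 and LYVE1 are at or near 0 in some animals.

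Covariation among animals was examined on log2 levels centred on the group means, for LOC102390617 against the other 7 members and for all 8 members against the scores of the squamous epithelium and smooth muscle lists. With Benjamini-Hochberg adjustment over the 23 relations, 0 passed 0.05 by permutation within groups. LOC102390617 and CD44 had the lowest unadjusted p-value, with Pearson's r = -0.64 (permutation p = 0.0367, adjusted p = 0.542) and Spearman's rho = -0.68 (permutation p = 0.0278). Without the 2 animals farthest from the median of CD44, r was -0.38, so that the relation rests on control replicate 1 and treated replicate 1. Relations that involve HAS1 or HAS2 rest on single fragments and are not read.

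The relation of LOC102390617 to UGDH, added after the values were seen, had r = 0.17 (permutation p = 0.627) and rho = 0.38 (permutation p = 0.235). Of the 2 other relations added with it, UGDH had r = 0.64 with the smooth muscle score (permutation p = 0.0242, adjusted over the 3 relations 0.0727) and rho = 0.32 (permutation p = 0.312), and r = -0.25 with the epithelium score (permutation p = 0.427, rho = -0.49, permutation p = 0.129). The relation with the muscle score had r = 0.42 without the 2 animals farthest from its median and 0.72 without both animals numbered 6. Between LOC102390617 and UGDH, r was 0.54 without the 2 animals farthest from the median of UGDH, so that this value depends on few animals. By r with LOC102390617, UGDH stood at place 3938 of 16449 tested genes.

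The epithelium score had r = 0.54 with CD44 (permutation p = 0.0835), 0.51 with HAS3 (permutation p = 0.111), -0.54 with CEMIP (permutation p = 0.0907) and -0.50 with LOC102390617 (permutation p = 0.118), each with an adjusted p-value of 0.542. For these genes Spearman's rho was 0.42, 0.28, -0.45 and -0.45 (permutation p = 0.197, 0.402, 0.161 and 0.167). Without the 2 animals with the most extreme scores, r was 0.25, 0.44, -0.70 and -0.15. For CEMIP it was -0.10 without both animals numbered 6, which had low epithelium scores and the highest CEMIP levels. KRT4, at only 0.0854 to 1.81 FPKM, counts as much in the epithelium score as each other marker. How far KRT4 set this score was not tested.

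**Figure D5:**
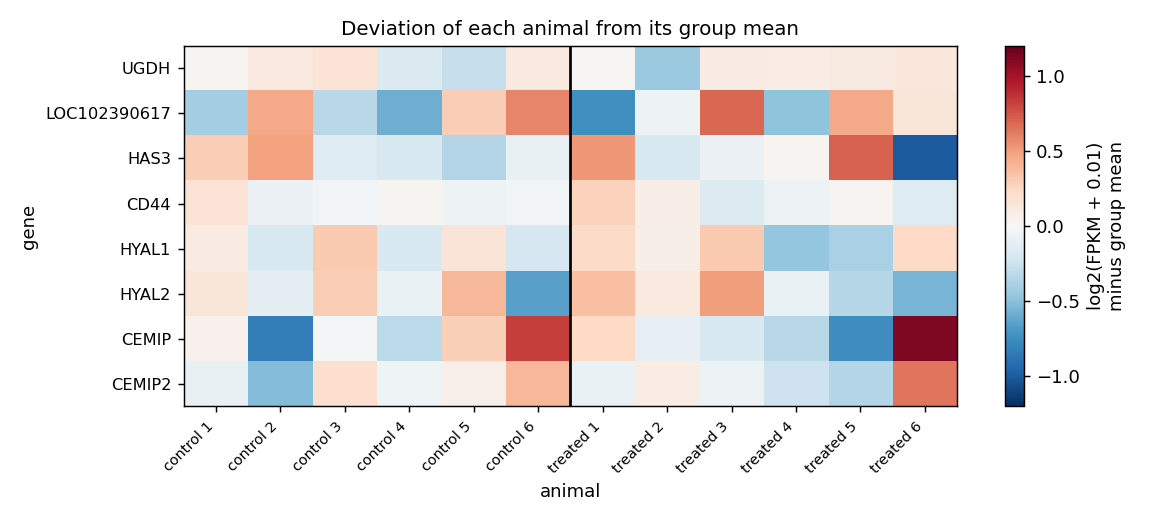
Log2(FPKM + 0.01) of UGDH, the 6 tested members and CEMIP2 in each animal minus the group mean, red for above and blue for below. Control replicate 6 and treated replicate 6 deviate by 0.83 and 1.12 for CEMIP and by -0.65 and -0.55 for HYAL2.

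The 5 tested genes whose centred log2 levels were most like those of LOC102390617 over the 12 animals were LOC102412021 (r = 0.93), LOC102394086 (0.87), ZNF674 (0.85), LRP6 (0.85) and LOC102409480 (0.84). These are the highest of 16449 correlations and are given as a description. LRP6, a co-receptor of Wnt proteins, had a mean of 13.2 FPKM, and its r without both animals numbered 6 was 0.94. None of the 5 is in the pathway lists, and their log2 fold changes with diet lay between -0.25 and 0.37.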

How the data were processed

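Ruminal wall RNA of 6 control and 6 treated buffaloes was compared by diet. The authors trimmed the reads with Trimmomatic 0.39 after FastQC 0.11.5, aligned them with STAR 2.5.2b to the UOA_WB_1 genome and summed them by gene with featureCounts 2.0.0, strand by strand, where the mapping quality reached 30. The authors deposited FPKM values for 34037 genes in 16 columns, of which 12 matched the sample labels and 4 were not used. The tool and gene lengths behind the FPKM are not given in the sources used here.

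FPKM were tested with limma 3.58.1 in R 4.3.3 (trend) on log2(FPKM + 0.01), for genes that reached 0.1 FPKM in 6 or more of the 12 animals, since FPKM is not a unit for a count model. For low genes at 0 in some animals, a log2 fold change on this scale can overstate the change between group means. GFPT2 had -1.36 with means of 0.192 FPKM in control and 0.189 FPKM in treated animals. CNN1 had -3.06 with means of 1.17 and 0.399 FPKM. Whole fragments behind the FPKM were recovered for 100% of the 22972 genes above 0 (within 0.001 of a whole number) and used for depth, floors and an alternative with voom, which called 302 genes at the nominal threshold. Permutation tests, correlations (100000 permutations) and figures used Python 3.11.15, numpy 2.4.6, scipy 1.17.1, pandas 2.3.3 and matplotlib 3.10.9. The fits were also run on simulated counts, drawn for each gene independently, as a check of the code and not of the calls reported here. Sequences were not used here. Names, neighbours and the overlap of genes came from RefSeq's NDDB_SH_1 table, another assembly than that of the files, in which 7 of the 8 members matched by gene ID.

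Named were all members, every pathway gene past the nominal threshold, the highest gene of each list and the 5 genes most like LOC102390617. The members and lists were chosen with earlier results of these data known. UGDH was compared with LOC102390617, and the order of levels tested, after the values were seen. Alternatives were other pseudocounts (0.1 and 1), filters and scalings, voom, robust eBayes, a replicate block, an exact rank-sum test, a smooth muscle covariate and leaving out single animals. Leaving out both animals numbered 6 and a fibroblast covariate were chosen after seeing the data. P-values measure the spread between animals that each gave 1 library.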

Additional observations from a re-analysis of the deposited data

Results flagged for a closer look

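Among the tested members, their relatives UGDH, HYAL3 and CEMIP2 and the genes leading each list, 4 of 24 groups of 6 animals were flagged. Each held a value far from the other 5 by Dixon's criterion, where chance gives about 1 in 20. The groups share animals and are not independent, and all flagged values lay in treated replicates 2 and 6. CEMIP was at 10.7 FPKM in treated replicate 6, against 2.93 to 5.81 FPKM in the other 5 treated animals. CEMIP2 was at 31.4 FPKM in the same animal, against 15.7 to 21.4 FPKM. UGDH was at 97.5 FPKM in treated replicate 2, against 134 to 145 FPKM, and HAPLN3 was at 5.90 FPKM in that animal, against 1.50 to 2.74 FPKM. The cause of these values was not tested.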

How the results depend on the processing

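LOC102390617 was lower in treated animals under all 25 alternatives and passed the nominal threshold under 16. With the smooth muscle covariate, the fibroblast covariate, the rank-sum test or both animals numbered 6 left out, 0 members passed, and without single animals 0 to 1. Pathway genes past the threshold numbered 0 under the fibroblast covariate, the rank-sum test and both animals left out, 0 to 2 without single animals, and 1 with the muscle covariate, which was CHSY3 (log2 fold change 0.52). Without treated replicate 6 they were LOC102390617 and XYLT1 (0.54), and without treated replicate 4 CHPF (-0.79). HAS3 was reversed at 0.12 with the muscle covariate, 0.017 by the difference of medians and 0.099 without both animals. Without single animals the log2 fold change ran from -0.22 to 0.12 for HAS3, from -0.18 to 0.059 for HYAL2, from -0.43 to -0.041 for CEMIP, from 0.064 to 0.15 for CD44, from 0.16 to 0.31 for HYAL1 and from -0.0060 to 0.14 for UGDH. With the muscle covariate HYAL1 was at 0.048, CD44 at 0.078, HYAL2 at -0.11 and CEMIP at -0.39.

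Of all genes, 301 passed in the comparison reported. The count was 562 with all genes above 0 tested, 157 with a mean of at least 1 FPKM, 157 at the threshold of the study, 565 with the fibroblast covariate, 451 without both animals numbered 6 and 283 to 465 without single animals, the highest without treated replicate 6. Under all of these, 0 passed the adjusted threshold, with a lowest adjusted p-value of 0.156. Shares of higher and lower calls moved with these settings too, from 168 higher and 133 lower to 271 and 291 with all genes above 0 and to 157 and 172 with the muscle covariate. The same numbers in the labels stand for different animals. With the replicate number as a block, 464 genes passed, LOC102390617 among them with a limma p-value of 0.00884. Same-numbered animals had correlations of deviations of -0.03 to 0.22, over 0.1 for 3 of 6 pairs. Their mean was 0.092, against -0.018 for other pairs, and 3 of 6 correlated best with their own number. The replicate numbers are a running order within each group and the labels name no pairs, so the animals were not taken as paired. The block changed no other call of a member.

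By exact permutation 0 members passed, and 0 to 1 without single animals (LOC102390617 at 0.0455, 0.0368, 0.0368 and 0.0455 without control replicate 1 or 4 or treated replicate 3 or 5). The log2 ratio of LOC102390617 to UGDH ran from -0.84 to -0.57 without single animals and passed without control replicate 1, 3 or 4 or treated replicate 3. Of the 23 relations 0 to 1 passed without single animals, the 1 being CEMIP with the epithelium score (r = -0.81) without treated replicate 1. In the order of levels, 4 of 6 pairs passed without both animals. Causes were not tested. Depth limits HAS1 and HAS2, which were fitted only with all genes above 0, where neither passed (limma p-values of 0.413 and 0.665).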
